A study of Drosophila melanogaster with 12 samples.

Results

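Pol II S2 ChIP-seq regions that lie inside introns, away from promoters and exons, were described in Kc167 cells, a female embryonic hemocyte line of *Drosophila melanogaster*. Regions called in the 6 immunoprecipitation (IP) libraries were merged wherever they overlapped or touched, which gave 8418 merged regions. A merged region was kept when it was under 5000 bp wide, lay more than 1500 bp from every annotated transcription start site (TSS), touched no annotated exon and lay in a gene. In all, 862 of the 8418 merged regions (10.2%) met the rule. The others comprised 5287 promoter regions within 1500 bp of a TSS, 1353 exonic regions, 282 intergenic regions and 634 regions of 5000 bp or more. The 3 groups were mock (transfected without RNA), AGO2 KD (siRNA against AGO2) and LaminB KD (dsRNA against LaminB), each with 2 replicate libraries. Cells were collected 3 days after transfection, and all groups were the same cell line at the same temperature. The reagent type differed between the knockdowns and the mock cells received neither. The labels do not say whether the replicates came from separate cultures, so the spread between them may be technical.

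The antibody recognises Pol II phosphorylated on serine 2 of its C-terminal repeats, a mark placed during productive elongation and usually strongest towards the 3′ part of transcribed genes. Pol II can also be found inside introns at enhancers, at unannotated start sites and while it travels through long transcribed genes. AGO2 is the effector Argonaute of the siRNA pathway in the fly and also binds chromatin. LaminB is a structural protein of the nuclear lamina, and its depletion served the study as a further comparison for the AGO2 knockdown.

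The sequences of 6 of the 862 regions are shown because the values below turn on them. Each is the plus strand of the Release 6 (dm6) genome, 5′ to 3′, and covers the central 200 bases of a region over 300 bp or the whole of a shorter one. Capitals mark matches on either strand to one of 8 motifs: the GATA factor motif GATAAG, the GAGA factor motif GAGAG, the AP-1 motif TGANTCA, the STAT motif TTCNNNGAA, the DRE motif TATCGATA, the Runx motif TGTGGTT, the E-box CACGTG and the CA repeat CACACACA. A match is a description of letters and not a binding site.

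The regions in *alpha-Man-Ia* and *tara* were among the 6 highest by mean rank of fold enrichment, of the 83 regions called in all 6 libraries. The first held 1 GATA factor match in its central 200 bases (31.0% GC). The second held no match to any of the 8 motifs and had a GC content of 53.5%.
alpha-Man-Ia (chrX:10319023-10319222): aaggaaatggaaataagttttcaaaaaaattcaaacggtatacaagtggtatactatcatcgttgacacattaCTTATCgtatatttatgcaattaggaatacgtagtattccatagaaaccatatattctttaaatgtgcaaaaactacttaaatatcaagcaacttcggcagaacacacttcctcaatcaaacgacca
tara (chr3R:16232779-16232978): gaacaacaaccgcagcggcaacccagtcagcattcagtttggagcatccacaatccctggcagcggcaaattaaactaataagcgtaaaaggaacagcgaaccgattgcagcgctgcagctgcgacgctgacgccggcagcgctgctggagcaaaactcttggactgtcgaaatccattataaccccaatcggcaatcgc

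The regions in *Socs36E* and *Eip74EF* ranked higher in both AGO2 KD lists than in both mock lists. The *Socs36E* region held 1 STAT match and 2 GATA factor matches in 278 bases. The central part of the *Eip74EF* region held 12 GAGA factor matches, of which most overlap in a single run and the others stand apart.
Socs36E (chr2L:18148904-18149181): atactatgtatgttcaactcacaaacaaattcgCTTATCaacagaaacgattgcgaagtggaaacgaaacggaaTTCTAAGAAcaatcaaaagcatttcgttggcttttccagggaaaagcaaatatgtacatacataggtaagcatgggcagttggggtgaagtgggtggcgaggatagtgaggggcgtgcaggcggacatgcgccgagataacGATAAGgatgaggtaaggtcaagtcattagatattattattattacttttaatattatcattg
Eip74EF (chr3L:17563701-17563900): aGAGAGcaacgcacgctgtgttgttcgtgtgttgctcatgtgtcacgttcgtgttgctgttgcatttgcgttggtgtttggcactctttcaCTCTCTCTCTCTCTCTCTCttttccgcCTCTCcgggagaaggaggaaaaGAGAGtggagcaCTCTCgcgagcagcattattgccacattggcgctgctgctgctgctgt

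The region in *skd* was the only one of the 862 called in both AGO2 KD libraries and in neither mock library, and it held 1 CA repeat. The region in *CG42588* also held a CA repeat and was called in all libraries but AGO2 KD 1.
skd (chr3L:21014658-21014857): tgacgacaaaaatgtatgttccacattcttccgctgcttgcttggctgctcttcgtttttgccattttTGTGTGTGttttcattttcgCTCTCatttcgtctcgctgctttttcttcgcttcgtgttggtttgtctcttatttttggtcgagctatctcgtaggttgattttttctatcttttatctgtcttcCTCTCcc
CG42588 (chr3L:12815790-12816031): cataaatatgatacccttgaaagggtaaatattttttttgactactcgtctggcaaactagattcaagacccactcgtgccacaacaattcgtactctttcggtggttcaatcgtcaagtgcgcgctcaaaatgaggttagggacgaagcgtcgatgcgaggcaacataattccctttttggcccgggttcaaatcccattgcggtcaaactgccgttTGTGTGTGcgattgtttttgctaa

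The regions were narrow. Their median width was 433.5 bp (quartiles 245.5 and 856 bp, range 147 to 4903 bp), against 1077 bp for promoter regions and 597 bp for exonic regions. Together they measured 580.58 kb, or 1.27% of the 45.6 Mb of intron sequence that the rule allows. They were spread over the arms in similar density, from 14.5 regions per Mb of allowed sequence on chromosome 4 (7 regions) to 21.0 on 2R (162 regions), and none lay on Y. The members nearest to the distance limit lay 1504 to 1510 bp from a TSS. Of the regions that touched only intron but lay within the limit there were 209, the farthest at 1498 bp. The widest member measured 4903 bp, and 4 regions of 5000 bp or more met the other conditions.

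The presence of the regions differed strongly between libraries. Mock 1 called 703 of the 862 regions (81.6%) and mock 2 called 585 (67.9%). AGO2 KD 1 called 93 (10.8%) and AGO2 KD 2 called 390 (45.2%). LaminB KD 1 called 454 (52.7%) and LaminB KD 2 called 383 (44.4%). Both mock libraries lay above every knockdown library, and the AGO2 KD replicates lay far apart, one below and one within the range of LaminB KD. The called parts covered 460.2 and 355 kb in mock, 41.7 and 213.1 kb upon AGO2 KD, and 260.6 and 222.3 kb upon LaminB KD. The plot of the share called by class shows the same libraries for all 4 classes.

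**Figure D1:**
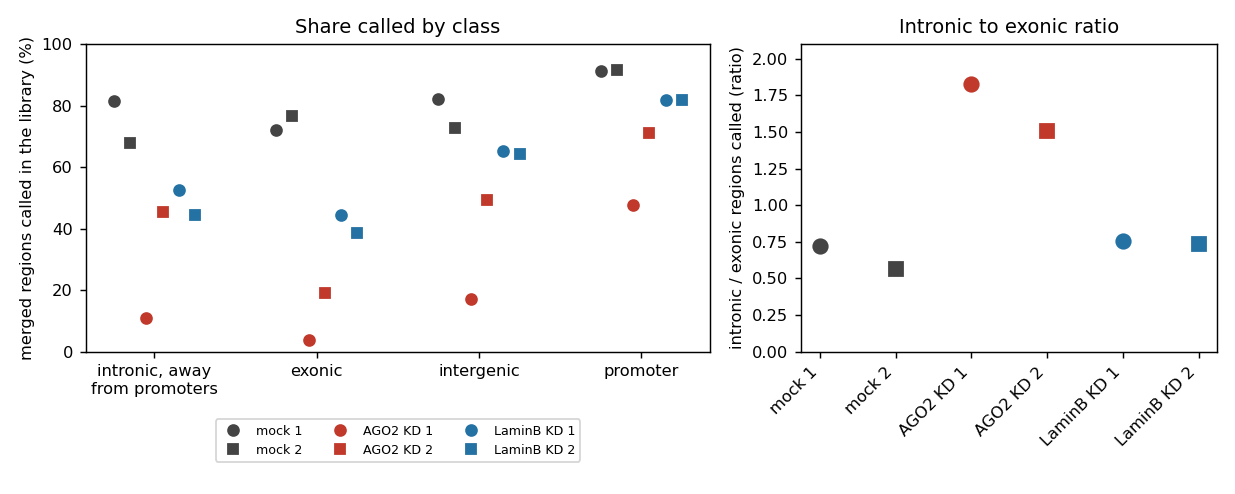
Left, the percentage of merged regions of each class (x axis) that were called in each library (y axis). Right, the number of intronic regions called divided by the number of exonic regions called in each library (y axis, ratio). Circles are replicate 1 and squares replicate 2, and each point is 1 library. AGO2 KD libraries sit lowest for promoter and exonic regions, and their intronic to exonic ratios of 1.82 and 1.51 lie above the other 4 libraries.

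Mock libraries called 644 ± 83.4 of the intronic regions (SD, n = 2), AGO2 KD libraries 241.5 ± 210 (SD, n = 2) and LaminB KD libraries 418.5 ± 50.2 (SD, n = 2). The log2 ratio of AGO2 KD to mock was −1.42, with a pooled SD of 1.04 on the log2 scale (exact two-sided permutation test, p = 0.33, which 2 against 2 libraries cannot go below). It was −0.72 without AGO2 KD 1 and −2.79 without AGO2 KD 2. The log2 ratio of LaminB KD to mock was −0.62, with a pooled SD of 0.18 (exact two-sided permutation test, p = 0.33). AGO2 KD and LaminB KD overlapped, at a log2 ratio of −0.79 (exact two-sided permutation test, p = 0.667), which was −0.10 without AGO2 KD 1 and −2.17 without AGO2 KD 2. Both knockdowns were set against the same mock libraries.

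The lists hold no reads, so the depth of a library is unknown. The lists held 4122 to 7957 regions, fewest in AGO2 KD 1. Among regions with a fold enrichment (IP over the background expected from input) of 3 to 3.5, the −log10 p had a median of 14.7 and 14.5 in mock, 4.11 and 6.49 upon AGO2 KD, and 9.87 and 11.6 upon LaminB KD. The smallest fold enrichment in a list was 1.43 and 1.41 in mock, 2.08 and 1.75 upon AGO2 KD, and 1.60 and 1.53 upon LaminB KD. When only the same number of top regions of each list was used, the log2 ratio of intronic regions called was −0.05 for AGO2 KD against mock and −0.15 for LaminB KD against mock. The part of list length and depth in the lower presence was not tested further. Promoters of 7 of 12 hemocyte marker genes were called in 5 libraries and 6 of 12 in AGO2 KD 1. For neuron markers it was 1 to 2 of 6, and for muscle markers 1 of 6. Of 5 matched germline markers, 3 to 4 had a called promoter, a share no lower than that of the hemocyte markers. The markers thus did not single out the label of the cell line, and a called promoter is not expression.

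Few of the intronic regions were present in every library. Of the 862, 263 (30.5%) were called in a single library, 139 in 2, 108 in 3, 100 in 4, 169 in 5 and 83 (9.63%) in all 6. Promoter regions were called in all 6 libraries at 47.2% and exonic regions at 3.77%. The most frequent pattern was presence in all libraries but AGO2 KD 1, with 163 regions (18.9%). Next came mock 1 alone with 151 regions, all 6 libraries with 83 and both mock libraries alone with 80. Only 53 regions were called in mock 2 alone, 26 in LaminB KD 1 alone, 21 in AGO2 KD 2 alone, 12 in LaminB KD 2 alone and none in AGO2 KD 1 alone.

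**Figure D2:**
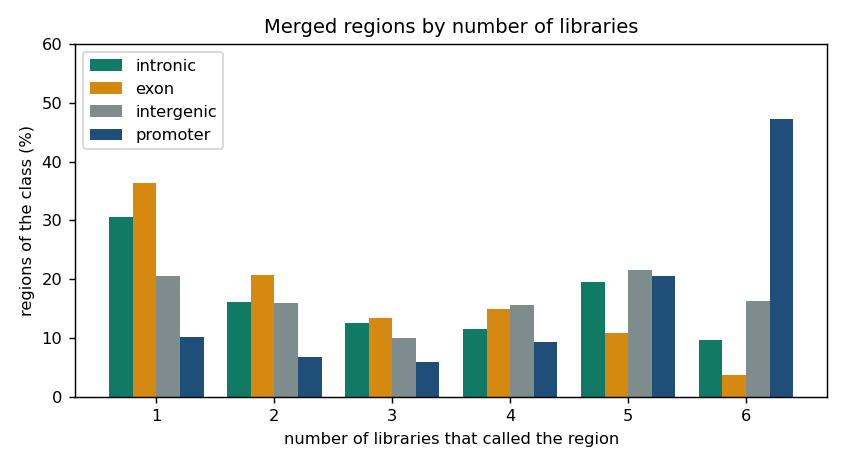
Bars give the percentage of merged regions of each class (y axis) that were called in 1 to 6 libraries (x axis). Intronic regions peak at 1 library (30.5%) with a further rise at 5 (19.6%), whereas 47.2% of promoter regions were called in all 6. Exonic regions also peak at 1 library (36.4%), and intergenic regions stand high at both 1 (20.6%) and 5 (21.6%).

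Presence went with width, in part by construction. The width is that of the merged region, so each further call can widen it but not narrow it. A wide region is also easier to overlap by 1 bp. The median width was 227 bp for regions called in 1 library and 1121 bp for those called in all 6. Regions called in mock 1 alone had a median width of 227 bp and a GC content of 46.4%, and those called in mock 2 alone 290 bp and 50.9%. The median GC content of all regions in the lists was 47.9% in mock 1 and 48.9% in mock 2. Replicates shared most of their intronic regions: 504 were called in both mock libraries (71.7% of those in mock 1 and 86.2% of those in mock 2) and 323 in both LaminB KD libraries (71.1% and 84.3%). AGO2 KD 1 was almost wholly nested in AGO2 KD 2, as 92 of its 93 regions were also called there, but these were 23.6% of those in AGO2 KD 2.

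Intronic regions were called less often than promoter regions in every library. The difference in the share called was −27.1 percentage points on average and negative in 6 of 6 libraries, from −9.71 in mock 1 to −37.4 in LaminB KD 2 (exact sign-flip permutation test over libraries, two-sided p = 0.031, which 6 libraries cannot go below). Among regions of 200 to 600 bp, a range chosen after the values were seen, it was −14.85 points, with the same p in this test. Against intergenic regions away from promoters the difference was −8.03 points, from −0.715 in mock 1 to −19.8 in LaminB KD 2 (exact sign-flip permutation test, two-sided p = 0.031). Against exonic regions it was 8.00 points, positive in 5 of 6 libraries and −8.71 in mock 2 (exact sign-flip permutation test, two-sided p = 0.156). This value was 4.38 without AGO2 KD 2, 3.29 for lists of the same length, 2.34 for the top-scoring 50% of each list and 14.95 for regions of 200 to 600 bp. The exonic comparison was added after the values were seen, and the p-values of these 3 comparisons are not adjusted for their number. The 6 libraries are of 3 treatments and are not replicates of 1 group.

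Intronic regions also ranked low in fold enrichment. A fold percentile places a called region among all regions of its own list, since fold is not comparable between lists. The median fold percentile of the intronic regions was 31.4 and 32.8 in mock, 45.9 and 44.9 upon AGO2 KD, and 38.0 and 32.8 upon LaminB KD. Both AGO2 KD libraries lay above all other libraries in this measure. AGO2 KD 1 did so over only 93 regions called, and AGO2 KD 2 over 390, near the 383 of LaminB KD 2. Exonic and intergenic regions had the same order. Exonic medians were 21.1 and 19.4 in mock, 35.0 and 33.7 upon AGO2 KD, and 22.95 and 21.14 upon LaminB KD, and intergenic medians 48.7 and 49.3, 58.0 and 56.9, and 48.8 and 52.2. Promoter regions had medians between 56.8 and 59.7 in all 6 libraries. The difference from promoter regions was −21.2 percentile points on average (exact sign-flip permutation test over 6 libraries, two-sided p = 0.031), and −8.00 in the top-scoring 50% of each list (p = 0.0938).

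The 6 regions of highest mean fold percentile were named, among the 83 called in all 6 libraries. The region in *Ir41a*, an ionotropic receptor gene, ranked first (chr2R:4923281-4924732, 5762 bp from the nearest TSS). Its fold enrichment was 5.49 and 5.92 in mock, 6.78 and 8.22 upon AGO2 KD, and 7.29 and 5.61 upon LaminB KD, which put it at or above the 98.8th percentile of each list. No region was called at the promoter of this gene in any library.

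The region of *alpha-Man-Ia*, which encodes a Golgi alpha-mannosidase, followed (chrX:10318512-10319733). Its fold enrichment was 4.43 and 3.75 in mock, 6.99 and 6.24 upon AGO2 KD, and 5.36 and 4.04 upon LaminB KD. Its percentile was higher in both AGO2 KD libraries (99.7 and 99.3) than in both mock libraries (94.8 and 86.9), and LaminB KD stood at 97.1 and 89.8, of which the second lay within the mock range. The central stretch of this region is printed above.

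*zfh2*, a zinc finger homeobox factor gene on chromosome 4, hosted 5 regions, and 2 of them were among the 6 of highest mean fold percentile. The wider one (chr4:504932-508838) had folds of 4.38 and 4.81 in mock, 4.82 and 5.14 upon AGO2 KD, and 4.67 and 4.27 upon LaminB KD. The narrower one (chr4:527462-528523) had folds of 4.09 and 4.26 in mock, 4.42 and 3.98 upon AGO2 KD, and 4.64 and 3.79 upon LaminB KD. Both stood above the 83rd percentile in every library.

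The remaining regions of the 6 lay in *CG17684*, whose mean fold percentile was 84.1, and in *tara* (taranis, a trithorax-group chromatin regulator), at 83.7. The *tara* region (chr3R:16232638-16233119) had folds of 4.06 and 4.60 in mock, 4.70 and 3.13 upon AGO2 KD, and 3.88 and 3.77 upon LaminB KD. It is 1 of 8 intronic regions of *tara*, of which 4 were called in all 6 libraries.

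**Figure D3:**
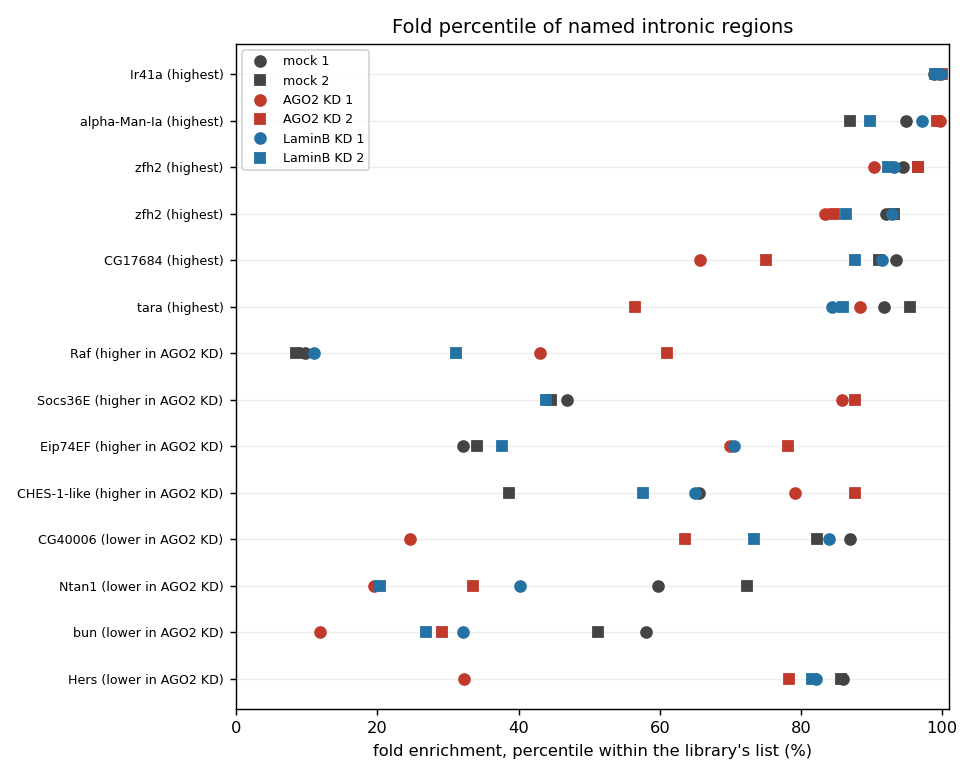
The x axis gives the percentile of fold enrichment within the list of a library, and each row is an intronic region named by its host gene. Circles are replicate 1 and squares replicate 2, coloured by group. The first 6 rows are the regions of the highest mean percentile among those called in all 6 libraries. The next 8 rows are those chosen for the largest separation between AGO2 KD and mock. *Socs36E* stands at 85.8 and 87.7 in AGO2 KD against 46.8 and 44.6 in mock, and has no point for LaminB KD 1.

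The changes of single regions were read from presence. Lost means called in both control libraries and in neither knockdown library, and gained the reverse. In AGO2 KD, 186 of 862 intronic regions were lost (21.6%), beside 19.0% of all merged regions, and 1 was gained (0.116%), beside 0.0238%. The share lost was thus near the background. In LaminB KD, 108 were lost (12.5%), beside 6.55% of all merged regions, and 9 were gained (1.04%), beside 0.523%. Against LaminB KD, AGO2 KD lacked 63 regions (7.31%), beside 8.93% of all, and had 2 more (0.232%), beside 0.0475%. With the same number of top-scoring regions taken from each list, 284 merged regions met the rule. Of these, 18 were lost and 17 gained in AGO2 KD, and 15 lost and 7 gained in LaminB KD. This setting changes the score threshold as well as the list length, and the part of each was not tested. With 1 library of a group left out, the lost counts rose to at most 416 in AGO2 KD (without AGO2 KD 2) and 268 in LaminB KD (without mock 2), and those gained to 35 (without AGO2 KD 1) and 41 (without LaminB KD 2).

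The lost regions named here are the widest ones, not the strongest. The widest region lost in AGO2 KD lay in *Myo81F*, an unconventional myosin gene (chr3R:2085249-2088162). It was covered over 1603 and 247 bp in mock, over none upon AGO2 KD, and over 2251 and 2914 bp upon LaminB KD. The one in *Jupiter*, a microtubule-associated protein gene, was covered over 2446 and 1569 bp in mock and 452 bp in LaminB KD 2 alone among the knockdowns. The one in *CG46385* was covered over 2251 and 747 bp in mock and 1088 and 552 bp in LaminB KD. The region in *eIF4EHP*, a cap-binding repressor of translation, was lost in both knockdowns, with 1540 and 1080 bp covered in mock and none in the other 4 libraries. The widest regions lost in LaminB KD besides it lay in *MESR3* (2427 and 1820 bp in mock), *Gprk2*, a kinase of G protein-coupled receptors (2105 and 607 bp), and *pyd*, the ZO-1 homologue of cell junctions (2082 and 663 bp). AGO2 KD 2 still called 489 bp of the *MESR3* region and 263 bp of the *pyd* region.

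The region gained in AGO2 KD lay in *skd*, which encodes a Mediator subunit (chr3L:21014505-21015009, 7985 bp from the nearest TSS). It was covered over 266 and 505 bp in AGO2 KD, over none in mock and LaminB KD 1, and over 173 bp in LaminB KD 2. Its folds were 3.13 and 3.10 in AGO2 KD, at percentiles of 25.1 and 55.0. This single region was no longer counted when only calls with a −log10 q of at least 2 were used. The widest regions gained in LaminB KD lay in *Glut4EF* and *CG46467* (717 and 720 bp), *Cow*, a carrier of Wingless (651 and 728 bp), *beat-Ib*, of the beaten path family (593 and 525 bp), and *twi* and *CG42741* (335 and 357 bp). AGO2 KD 2 also called 639 bp in *Cow* and 385 bp in *beat-Ib*, and none in the other 2.

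Over the 87 regions called in all 4 libraries of mock and AGO2 KD, the median fold percentile was 59.2 and 53.2 in mock, and 45.9 and 63.7 in AGO2 KD. The groups overlapped, at a difference of −1.40 points (exact two-sided permutation test, p = 1), and 6 alternatives reversed its sign. Of these 87 regions, 18 (20.7%) had a higher percentile in both AGO2 KD libraries than in both mock libraries, beside 9.03% of all merged regions called in the same 4 libraries, and 20 (23%) a lower one, beside 45.3%. Over the 299 regions called in all libraries of mock and LaminB KD, the median was 44.7 and 45.4 in mock and 43.9 and 39.3 in LaminB KD, a difference of −3.43 points (exact two-sided permutation test, p = 0.33), and 3 alternatives reversed its sign. Here 45 (15.1%) were higher, beside 11.3%, and 77 (25.8%) lower, beside 28.6%.

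The region in *Raf*, the MAP kinase kinase kinase of Ras signalling, had the largest gain in rank (chrX:2317375-2317755). Its folds were 1.86 and 1.86 in mock, 3.42 and 3.22 upon AGO2 KD, and 2.07 and 2.31 upon LaminB KD, at percentiles of 9.77 and 8.46, 43.0 and 61.0, and 11 and 31.2. LaminB KD thus also lay above mock, but below AGO2 KD.

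The region in *Socs36E*, a feedback inhibitor of JAK-STAT signalling, lay in its first intron (chr2L:18148904-18149181, 3236 bp from the nearest TSS). Its folds were 2.42 and 2.43 in mock, 4.56 and 4.15 upon AGO2 KD, and 2.53 upon LaminB KD 2, and it was not called in LaminB KD 1. The whole of this region is the sequence with the STAT match above.

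In *Eip74EF*, an early ecdysone response gene for an Ets factor, the region at chr3L:17563498-17564102 had folds of 2.19 and 2.25 in mock, 3.98 and 3.69 upon AGO2 KD, and 3.24 and 2.42 upon LaminB KD. LaminB KD 1 reached the 70.5th percentile, as did AGO2 KD 1 at the 70.0th, so the knockdowns were not apart. In *CHES-1-like*, a forkhead factor gene, the percentiles were 65.5 and 38.6 in mock and 79.1 and 87.6 in AGO2 KD. The regions of the largest fall in rank lay in *CG40006*, *Ntan1*, *bun* (a TSC22 family gene) and *Hers* (a repressor of histone genes). The *bun* region, for example, was at the 58.1 and 51.3 percentiles in mock, 11.9 and 29.1 upon AGO2 KD, and 32.1 and 26.9 upon LaminB KD. These 8 regions were chosen for this separation and are a description.

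Exonic regions fell further than intronic ones in AGO2 KD. Exonic calls numbered 976 and 1036 in mock, 51 and 259 upon AGO2 KD, and 601 and 521 upon LaminB KD. The ratio of intronic to exonic calls was 0.720 and 0.565 in mock, 1.82 and 1.51 upon AGO2 KD, and 0.755 and 0.735 upon LaminB KD. Both AGO2 KD libraries lay above the other 4, at a log2 difference from mock of 1.37 (pooled SD 0.22) and from LaminB KD of 1.16 (pooled SD 0.14) (exact two-sided permutation tests, p = 0.33 each). LaminB KD lay above mock by 0.21 on the log2 scale (pooled SD 0.18; exact two-sided permutation test, p = 0.33), and by 0.05 without mock 2. The direction for AGO2 KD against mock was the same under all 15 alternatives, at 0.30 for the top-scoring 50% of each list and 0.52 for lists of the same length. This ratio and those that follow were computed after the counts had been seen. The rise against exonic calls was not particular to intronic regions. Promoter calls divided by exonic calls were 4.94 and 4.67 in mock, 49.3 and 14.5 upon AGO2 KD, and 7.20 and 8.30 upon LaminB KD, and intergenic calls divided by exonic calls were 0.238 and 0.198, 0.941 and 0.537, and 0.306 and 0.347. The ratio of intronic to promoter calls was lower in both AGO2 KD libraries (0.0370 and 0.104) than in both mock libraries (0.146 and 0.121), as it was in both LaminB KD libraries (0.105 and 0.0886). The ratio of intronic to intergenic calls was 3.03 and 2.85 in mock, 1.94 and 2.81 upon AGO2 KD, and 2.47 and 2.12 upon LaminB KD.

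The ratio was then set beside regions of like strength. Among regions called in both mock libraries with a mean mock fold of 2 to 2.5 and a width of 300 to 900 bp, the intronic regions numbered 115 and the exonic ones 125. AGO2 KD 1 called 13.0% of the intronic and 2.40% of the exonic ones, and AGO2 KD 2 called 60.9% and 20.0%. LaminB KD 1 called 73.0% and 65.6%, and LaminB KD 2 66.1% and 52.8%. Of 312 promoter regions of like fold and width, the shares were 7.69% and 47.1% for AGO2 KD and 79.8% and 77.6% in LaminB KD. Of 32 such intergenic regions, they were 0% and 37.5% for AGO2 KD and 68.75% and 65.62% for LaminB KD. Intronic regions were thus called more often than exonic ones in all 4 knockdown libraries, and more often than promoter regions in AGO2 KD but less often in LaminB KD. Exonic regions are richer in GC, with a median of 51.1% against 46.5% here. Within a GC content of 46 to 50% (mean mock fold 1.8 to 2.7), AGO2 KD 1 called 16.1% of 62 intronic and 4.76% of 42 exonic regions, and AGO2 KD 2 62.9% and 33.3%. Of 136 promoter regions in these ranges, AGO2 KD 1 and 2 called 12.5% and 55.15%, closer to the intronic shares than before. LaminB KD 1 called 79.03% of the intronic and 80.15% of the promoter regions, and LaminB KD 2 62.9% and 78.68%. Of the exonic regions, LaminB KD 1 and 2 called 66.67% and 54.76%. Of only 12 intergenic regions, AGO2 KD 1 and 2 called 8.33% and 50%, and LaminB KD 1 and 2 50% and 66.67%. Regions are not replicates, and no test was made of these shares.

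Regions of higher fold in mock were present more often in the knockdowns. Of the 113 regions with a mean mock fold under 2, AGO2 KD 1 and 2 called 9.73% and 52.2%, and LaminB KD 1 and 2 called 61.1% and 50.4%. Of the 60 regions with a mean mock fold of 3 or more, they called 45% and 83.3%, and 95.0% and 91.7%. All 4 knockdown libraries had a higher share in the highest class than in the lowest. Among the 504 regions of both mock libraries, those called in AGO2 KD 2 had a median width of 763 bp and a GC content of 44.8%, and those not called 424 bp and 46.6%. LaminB KD 2 had nearly the same values, at 778 bp and 44.8% against 399 bp and 46.7%. These are again widths of the merged region, which the calls themselves can widen.

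The 862 regions lay in 393 annotated genes, of which 386 were protein-coding and 7 non-coding. Most regions lay in 1 gene, and 40 lay in 2 or 3 overlapping genes. The hosts were long: the median length of the protein-coding hosts was 29.3 kb, against 6.23 kb for other genes with intron sequence that the rule allows. Of the 5269 protein-coding genes with such sequence 7.33% were hosts, and of the 1550 genes with at least 5 kb of it 21.4%. Single regions were found in 205 hosts, whereas 43 hosts with 5 or more regions held 332 regions (38.5%). A library called the promoter of 80.3% (AGO2 KD 1) to 92.0% (mock 2) of the protein-coding hosts, against 44.3% to 63.9% of the other genes. Hosts are longer and may have more start sites, and this difference was not adjusted for it.

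*heca* (headcase) had the most regions, 18, of which mock called 15 and 13, AGO2 KD 0 and 3, and LaminB KD 6 and 3. *kuz*, which encodes an ADAM protease that cleaves Notch, had 17, of which mock called 14 and 6, AGO2 KD 1 and 4, and LaminB KD 7 and 3. The mock replicates thus differed by more than the LaminB KD replicates in *kuz*. In *kuz*, 8 regions were called in mock 1 alone, and 1 region of 2207 bp (chr2L:13571356-13573562) was called in all 6 libraries, with folds of 2.96 and 2.55 in mock, 3.81 and 3.74 upon AGO2 KD, and 3.07 and 3.13 upon LaminB KD.

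*Gprk2* had 14 regions, among them the widest of all (chr3R:31418401-31423303), which was called in all 6 libraries with folds of 2.75 and 2.95 in mock, 3.5 and 3.21 upon AGO2 KD, and 2.52 and 2.93 upon LaminB KD. *ush*, a cofactor of GATA factors that acts in hemocytes, had 13 regions. Mock called 9 and 11 of these, AGO2 KD 2 and 4, and LaminB KD 6 and 6. The *ush* regions called in all 6 libraries were a 1499 bp region (chr2L:484436-485934), with folds of 1.67 and 1.75 in mock, 3.37 and 2.30 upon AGO2 KD, and 1.83 and 1.79 upon LaminB KD, and a 591 bp region (chr2L:519181-519771). *mtgo* had 11 regions and *Pdp1*, a PAR-domain bZIP gene of the circadian clock, had 10, as did *bun*.

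**Figure D4:**
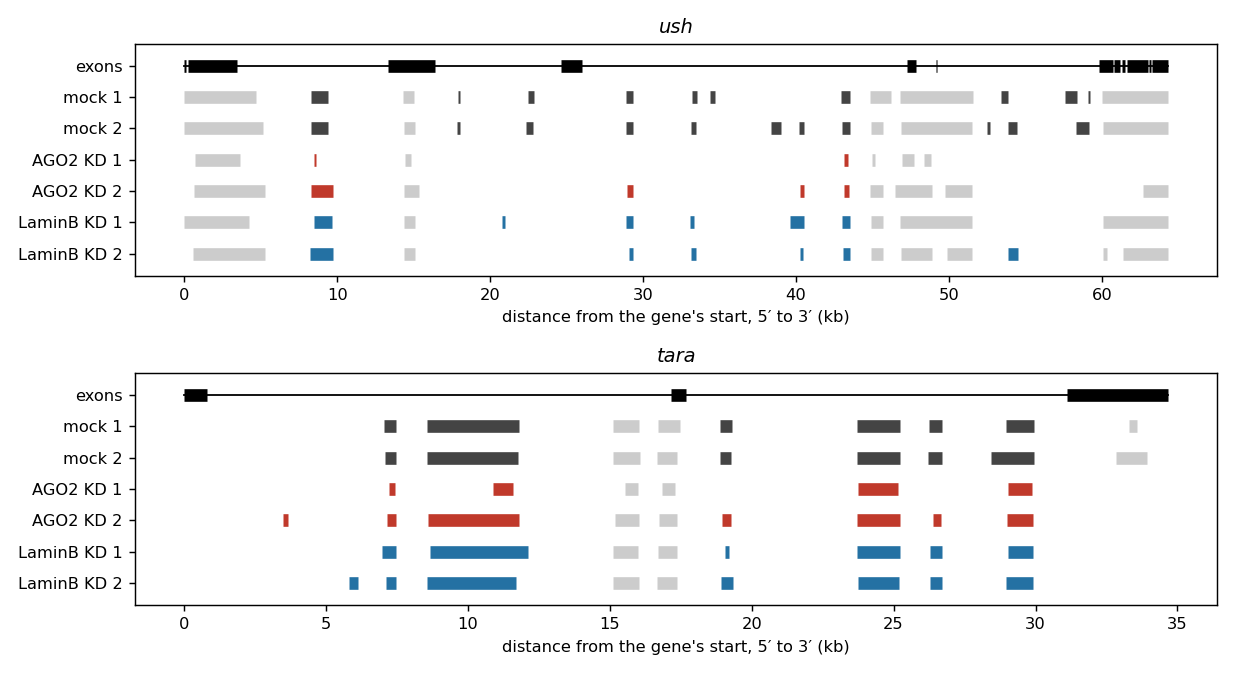
Called regions along *ush* and *tara*, with distance from the start of the gene on the x axis (kb) and 1 row for each library under the annotated exons (black boxes). Coloured boxes are called parts of intronic regions away from promoters and exons, and grey boxes are called parts of other merged regions. *ush* keeps 2 intronic regions in all 6 libraries and *tara* keeps 4, while AGO2 KD 1 has the fewest boxes in both.

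The contrast between hosts is visible in these maps. In *tara*, 6 and 6 of the 8 regions were called in mock, 4 and 7 upon AGO2 KD, and 6 and 7 upon LaminB KD. The fall in number seen in *heca* and *ush* was thus not seen in *tara* outside AGO2 KD 1. The *tara* regions called in all 6 libraries were between 482 and 3574 bp wide.

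At 31 hosts no region was called within 1500 bp of any of their TSSs in any library. These were named after their values were seen. *AGO3*, a piRNA pathway Argonaute, had 3 intronic regions, called by mock as 3 and 3, by AGO2 KD as 0 and 2, and by LaminB KD as 2 and 2. The one farthest into the gene (chr3L:23686200-23686558) had folds of 3.45 and 2.93 in mock, 3.09 in AGO2 KD 2, and 3.28 and 2.91 upon LaminB KD. *Snap25*, a synaptic membrane fusion gene of 225.0 kb, had 3 regions, of which the one at chr3L:24089087-24090225 had folds of 3.06 and 2.82 in mock, 3.27 in AGO2 KD 2, and 2.80 and 2.75 upon LaminB KD. Repeat-rich sequence, lower-case in the reference, made up 37.4% of *AGO3*, 37.5% of *Snap25* and 29.4% of *Ir41a*, against 24.1% of the allowed intron sequence. The share varied among the 31 hosts. It was 46.6% in *lovit* and 38.3% in *CG17684*, but 13.4% in *5-HT7*, 14.3% in *Cow* and 16.3% in *beat-Ib*. The values of named genes are of whole genes, exons included, and not of the called regions. Reads of low mapping quality had been removed by the authors, and the part of repeats in these calls was not tested. *bab1*, *hth* and *5-HT7* were also among the 31.

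Lists of genes of known pathways were then read for hosts. Listed symbols that matched no gene name of the annotation were left out of all counts. These were *phl*, *Gap1* and *cbl* (receptor tyrosine kinase), *Dl* (Notch), *Eip71CD* (ecdysone) and *nos* (germline). Of the ecdysone response genes, 10 of 13 with allowed intron sequence were hosts, with 27 regions. They comprised the receptor *EcR*, the early genes *Eip74EF*, *Eip75B* and *Eip78C*, the later nuclear receptors *Hr3*, *Hr4*, *Hr39* and *ftz-f1*, the transporter gene *E23* and *Eip93F*. Mock called 18 and 19 of the 27, AGO2 KD 4 and 19, and LaminB KD 18 and 17. The libraries other than AGO2 KD 1 called similar numbers here. Of the 27, 2 were lost upon AGO2 KD (7.41%) and none upon LaminB KD, beside 21.6% and 12.5% of all 862 intronic regions. None were gained. In *ftz-f1*, for example, 4 of 5 regions were called in all libraries but AGO2 KD 1, and the fifth in mock and LaminB KD only.

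Of the receptor tyrosine kinase genes, 6 of 8 were hosts (27 regions): the receptors *Pvr* and *InR*, the kinase gene *rl* (ERK), the inhibitor *sty* (Sprouty), and the Ets factors *pnt* and *aop*. Mock called 23 and 22 of these, AGO2 KD 3 and 14, and LaminB KD 18 and 14, with 8 lost upon AGO2 KD (29.6%) and 2 upon LaminB KD (7.41%), beside 21.6% and 12.5% of all 862 intronic regions. In *rl*, mock called 5 and 6 of 6, AGO2 KD none and LaminB KD 3 and 4. In *pnt*, mock called 8 and 7 of 9, AGO2 KD 2 and 7, and LaminB KD 7 and 5. *Raf* (3 regions) and *RasGAP1* (2 regions) were also hosts, but the counts of this list leave them out. In *Raf*, mock called 2 and 2, AGO2 KD 2 and 3, and LaminB KD 2 and 2. In *RasGAP1*, mock called 1 and 2, AGO2 KD 0 and 1, and LaminB KD 1 and 1.

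Of the Notch pathway genes, 4 of 9 were hosts (27 regions): the receptor *N*, its ligand *Ser*, the coactivator *mam* and the protease *kuz*. Mock called 23 and 13 of these, AGO2 KD 3 and 11, and LaminB KD 14 and 10. None counted as lost or gained, but only 10 of the 27 had been called in both mock libraries. In *mam*, which had 7 regions, 1 was called in all 6 libraries and 4 in all but AGO2 KD 1. Of the JAK-STAT genes, 4 of 10 were hosts (6 regions): the factor *Stat92E*, the inhibitors *Socs36E* and *Ptp61F*, and *chinmo*. Mock called 6 and 6 of these, AGO2 KD 3 and 5, and LaminB KD 4 and 5. In each knockdown 1 of the 6 was lost (16.7%), beside 21.6% of all 862 regions in AGO2 KD and 12.5% in LaminB KD. One region of *Stat92E* (chr3R:20546684-20547137) was called in all libraries, with folds of 2.34 and 2.22 in mock, 3.07 and 3.21 upon AGO2 KD, and 2.33 and 2.43 upon LaminB KD.

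Of the BMP and TGF-beta genes, 4 of 11 were hosts (9 regions): the receptor *babo*, the BMP-binding *cv-2*, the inhibitor *Dad* and the factor *shn*. Mock called 7 and 6, AGO2 KD 0 and 2, and LaminB KD 1 and 1, so 3 regions (33.3%) were lost in each knockdown, beside 21.6% of all 862 regions in AGO2 KD and 12.5% in LaminB KD. Both *cv-2* regions were called in mock 2 alone. Of the JNK and AP-1 genes, 4 of 8 were hosts (8 regions): the kinase *msn*, the phosphatases *puc* and *Mkp3*, and *kay* (Fos). Mock called 5 and 4 of these, AGO2 KD 1 and 5, and LaminB KD 4 and 5. None counted as lost or gained, and 3 had been called in both mock libraries. Of the actin and adhesion genes, 6 of 14 were hosts (9 regions), with 2 lost in each knockdown (22.2%). Of 20 transcription factor genes, 12 were hosts (44 regions), with 9 lost in AGO2 KD (20.5%), 7 lost (15.9%) and 1 gained in LaminB KD. Of the marker genes of cell types, *ush* and *Pvr* (hemocyte) and *Mef2* (muscle) were hosts, and none of the neuron or germline markers was. Of the 14 regions in *ush* and *Pvr*, 5 were lost upon AGO2 KD (35.7%) and 3 upon LaminB KD (21.4%). The shares lost in all these lists stand beside the same 21.6% and 12.5% of all 862 regions. Beside these lists, 7.33% of all protein-coding genes with allowed sequence were hosts, and 21.4% of those with at least 5 kb of it. List genes were not matched for length. The lists were chosen with earlier results of these data known, so their shares of hosts are a description.

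In *vri*, a bZIP clock gene, 1 intronic region (chr2L:5292101-5293237) was called in all libraries but AGO2 KD 1, with folds of 2.28 and 2.51 in mock, 3.63 in AGO2 KD 2, and 3.46 and 2.92 upon LaminB KD. Its second region (225 bp) was called in AGO2 KD 2 alone. *Traf4* and *betaTub60D* hosted none.

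The position of the regions in their genes followed the available sequence with a deficit near the 3′ end. Cut into 4 parts of equal length from 5′ to 3′, the genes held 23.8%, 32.1%, 30.3% and 13.8% of the regions in turn, against 23.3%, 29.5%, 28.1% and 19.0% of the allowed intron sequence. The first intron held 24.7% of the regions and 22.1% of the sequence. The median distance to the nearest TSS was 5134.5 bp (maximum 119719 bp), and 193 regions lay 10 kb or more away. The regions were often neighbours of other called regions: the median gap to the next merged region was 1461.5 bp, and 310 (36.0%) had one within 1000 bp. The next region was itself intronic for 430, at a promoter for 280 and exonic for 99. Regions with no neighbour within 5000 bp numbered 157.

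The sequences of the regions differed in composition from the allowed intron sequence as a whole. Their GC content was 44.9% against 39.9% for all allowed intron sequence, and 17.4% against 24.1% was repeat-rich by the lower-case letters of the reference. An annotated transposable element overlapped 58 regions. In windows reaching 150 bp to either side of the centre of a region, the GATA factor motif (GATAAG on either strand) was found in 18.9%, against 13.4% of windows on all merged regions and 11.9% of all 141497 allowed intron windows of the same length. The GAGA factor motif (GAGAG) was found in 44.1%, 38.5% and 30.3%, and the CA repeat (CACACACA) in 17.7%, 8.67% and 7.46%.

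The CA repeat was the motif of the largest ratio to the intron windows. It was found in 8.81% of promoter regions, 9.22% of intergenic regions and 4.58% of exonic regions. The other motifs were closer to the background. AP-1 (TGANTCA) was found in 7.54%, against 5.50% and 6.25%, and STAT (TTCNNNGAA) in 8.12%, against 8.08% and 9.41%. DRE (TATCGATA) was found in 1.04%, against 1.59% and 0.672%, Runx (TGTGGTT) in 6.03%, against 4.59% and 4.67%, and the E-box (CACGTG) in 4.64%, against 4.57% and 3.32%. The windows of the regions had a median GC content of 45.8%, those of all merged regions 48.2% and the intron windows 40.2%, so the windows were not matched in base composition. Overlapping matches of different motifs were each counted, and no test was made.

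**Figure D5:**
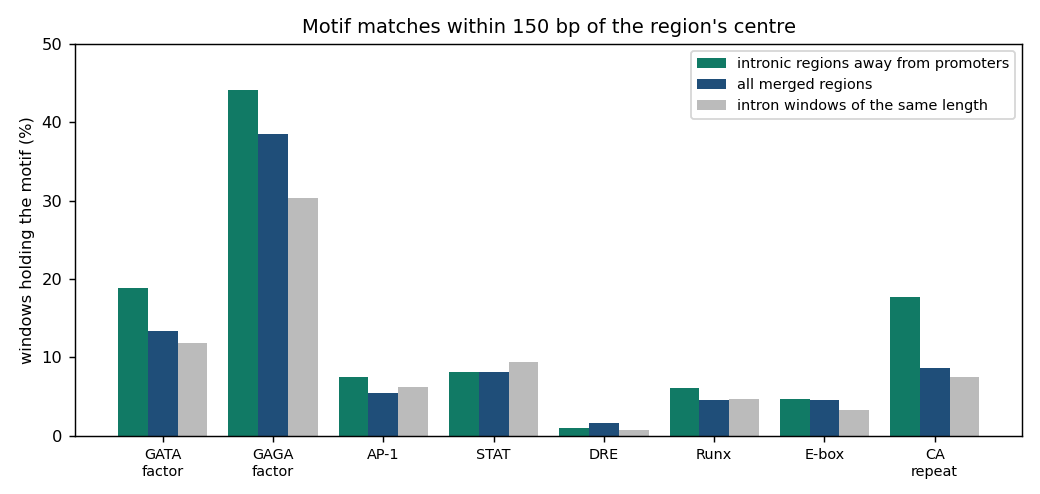
The percentage of windows, 150 bp to either side of the centre (y axis), with at least 1 match to each motif (x axis) on either strand, for the 862 intronic regions, all 8418 merged regions and all allowed intron windows. The CA repeat stands at 17.7% in the intronic regions against 7.46% of intron windows.

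The CA repeat was unevenly distributed among the patterns of presence. Of the 163 regions called in all libraries but AGO2 KD 1, 28.8% held it, and of the 83 called in all 6 libraries 7.23%. Of the 504 regions called in both mock libraries, 87 held a CA repeat and 417 did not. AGO2 KD 1 called 8.05% of the former and 19.4% of the latter, whereas AGO2 KD 2 called 74.7% and 60.4%, LaminB KD 1 83.9% and 70.3%, and LaminB KD 2 73.6% and 63.5%. The direction in AGO2 KD 1 was thus opposite to that in the other 3 knockdown libraries, its replicate included. For the GATA factor motif the shares with and without a match were 21.2% and 16.5% for AGO2 KD 1, 60.6% and 63.5% for AGO2 KD 2, 74.7% and 72.1% for LaminB KD 1, and 61.6% and 66.2% for LaminB KD 2, with no common direction. Of the 35 regions called in at least 1 AGO2 KD library and in no mock library, 40.0% held a CA repeat. The *skd* region was the only one of the 35 that AGO2 KD 1 called, so this set rests on AGO2 KD 2. Of the 57 called in at least 1 LaminB KD library and in no mock library, 28.1% held it. Some regions belong to both sets. Such regions were narrow, with medians of 225 and 285 bp.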

How the data were processed

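Broad regions of Pol II S2 ChIP-seq from 6 IP libraries were used as deposited by the authors, 1 list per library. Inputs entered only through the peak calling. The authors trimmed reads with cutadapt, aligned them to dm6 with Bowtie2, removed multimapping reads and duplicates (Picard) and called regions against input with MACS2 2.1.1.20160309, separately for each replicate. The submitters' processing notes give cutadapt 1.10 and Picard 2.11.0, and the study's methods name other versions of both. Each list holds 9 columns. The score deposited by the authors is 10 times −log10 q as a whole number, the fold deposited by the authors is a ratio of IP to background, and the −log10 p and −log10 q deposited by the authors are region averages. The smallest −log10 q was 1.01. No list holds reads, so depth is unknown, no counting interval can be given and the read-based test of the study was not run.

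Regions were merged and classed with Ensembl 115 gene models (annotation 6.54, transposable elements left out) in this order: 5000 bp or more, within 1500 bp of a TSS, touching an exon, in a gene, intergenic. A region was called in a library when a region of that list overlapped it by at least 1 bp. Sequences came from RefSeq's Release 6 genome. Motifs were counted in windows reaching 150 bp to either side of the centre. Groups of 2 were compared by exact permutation (smallest p 0.33), classes over 6 libraries by exact sign-flip permutation (smallest p 0.031), in Python 3 with the procedures tested on simulated data. Alternatives were the overlap, score and q thresholds, list length, TSS distance, annotation, merging, width, replicates left out and a replicate block. Named regions were the 6 of highest mean fold percentile among those called in all 6 libraries. Named hosts were the 6 with most regions (the last place was tied with *bun*). Up to 4 of the widest regions lost or gained, and up to 4 of the largest rise and fall in percentile, were named too. Hosts in the gene lists and the study's example genes were named as well. The members and the lists were chosen with earlier results of these data known. Exonic comparisons, regions of like fold, hosts without a promoter call and CA repeat patterns were added after values were seen.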

Additional observations from a re-analysis of the deposited data

How the results depend on the processing

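No comparison of 2 against 2 libraries could pass 0.05, and depth is unknown, so a region that was not called may be present below the threshold of that list. Lists of the same length (the top regions by score) turned the log2 ratio of intronic regions called in AGO2 KD against LaminB KD to 0.10, and the difference in fold percentile to 14.6 in AGO2 KD and 5.24 in LaminB KD against mock. They also gave 18 lost and 17 gained in AGO2 KD, 15 lost in LaminB KD, and a share called 13.4 points lower than intergenic regions (−13.39, p = 0.0625, exact sign-flip permutation test). The top-scoring 50% of each list gave 31 lost in AGO2 KD, 22 lost in LaminB KD, a fold percentile difference of 6.25 for LaminB KD, and −8.00 against promoter regions. The percentile difference for AGO2 KD was 2.80 beyond 3000 bp from a TSS, 1.18 under 2000 bp wide and 1.78 without host genes of 5 or more regions. That last setting left 107 lost in AGO2 KD and 65 in LaminB KD. Gained in AGO2 KD was 0 at −log10 q of at least 2 and 0 with transposable elements counted as genes. The causes were not tested.

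Leaving out 1 library left 5 differences between classes, for which the smallest p is 0.0625. The share called then lay −30.53 to −25.00 points from promoter regions and −9.49 to −5.68 from intergenic regions, and the fold percentile −23.21 to −19.76 from promoter regions. The percentile difference ran from −11.07 to 6.07 in AGO2 KD and from −6.27 to 0.39 in LaminB KD. Lost regions numbered 187 to 416 in AGO2 KD and 138 to 268 in LaminB KD, and gained regions 1 to 35 and 16 to 41. The log2 ratio of intronic regions called ran from −2.79 to −0.72 in AGO2 KD and from −0.75 to −0.48 in LaminB KD against mock.

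With a replicate block, the log2 ratios of intronic regions called were −1.75 (p = 0.5) for AGO2 KD and −0.62 (p = 0.5) for LaminB KD against mock, and −1.13 (p = 1) between the knockdowns (exact sign-flip permutation tests over 2 pairs, smallest p 0.5). Deviations of libraries of the same number correlated at 0.01, 0.04 and −0.03 over all merged regions, and at 0.13, −0.014 and 0.0011 over the intronic ones (AGO2 KD with mock, LaminB KD with mock, and the knockdowns), so the numbers were not taken as pairs. The block changed no other direction.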
